A study of Sus scrofa with 8 samples.

Results

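The 9 genes described here encode transcription factors of the pancreatic duct and of the pancreatic progenitor: PDX1, NKX6-1, GATA6, SOX9, HNF4A, FOXA2, ONECUT1, ONECUT2 and PROX1. They were taken by their symbols from the 30282 genes of the count table, with the rows that the annotation splits off from a gene added back to it, which joined 19 rows into 9 genes. The study grew porcine pancreatic ductal organoids (PPDO), hollow spheres of duct epithelium kept in a basement membrane gel, from ducts picked out of pig pancreas. Poly(A) RNA from 4 PPDO lines in 2 media was sequenced, which gives 8 libraries of 40553627 to 47910680 counts.

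The Em line came from embryonic pancreas, the EPN1 and EPN2 lines from early postnatal pigs and the LPN line from a late postnatal pig. The pigs were German landrace, either wild type or carrying an INS-eGFP reporter, and which line came from which genotype was not given in the sources used here. Each line was kept for a week in complete medium (the control) or in differentiation medium. The differentiation medium leaves out WNT3a, R-spondin1, noggin, FGF10, EGF, gastrin and prostaglandin E2. Both media share N2, B27, A83-01, Y-27632, nicotinamide and N-acetylcysteine. Each line stands for 1 source, so the stage of Em and of LPN cannot be told apart from the line, while EPN1 and EPN2 share a stage. Within a line there was 1 culture per medium. The paper refers to these PPDO as early passage, but its text gives no passage number for each line. Passage was the main source of variance in the PPDO proteomes of the paper. Any difference in passage between the lines cannot be told apart from the line here. The p-values for the medium alone measure the spread among these 4 lines. Those of the tests between lines use the 2 cultures of a line as its replicates. Those of the tests blocked by line compare the 2 media within each line, over the 4 lines. Both kinds are set against what is left once line and medium are taken out.

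In the embryo, PDX1, SOX9, NKX6-1, ONECUT1, FOXA2 and GATA6 act together in the multipotent cells that later give rise to ducts, acini and islets. Most of these factors then become restricted: SOX9 and ONECUT1 remain in duct cells, while high PDX1 and NKX6-1 mark beta cells. Onecut, FOXA and HNF4A proteins are the factors of a network known from liver and pancreas, in which several of them bind near one another's genes.

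The table names 1 identifier for each gene except PROX1, for which 2 identifiers were summed. In the RefSeq annotation of Sscrofa11.1, the pig build named in the submitters' processing notes, ONECUT2 (ENSSSCG00000004540) spans chr1:106751346-106812484 and ONECUT1 (ENSSSCG00000004616) spans chr1:118913400-118958140. FOXA2 (ENSSSCG00000007114) lies at chr17:29997397-30001704 and HNF4A (ENSSSCG00000007371) at chr17:46783772-46847505. PDX1 (ENSSSCG00000035817) lies at chr11:5303609-5309063, NKX6-1 (ENSSSCG00000009232) at chr8:134137064-134143524 and SOX9 (ENSSSCG00000017251) at chr12:8642154-8647315. GATA6 (ENSSSCG00000003702) lies at chr6:107282709-107314725 and PROX1 (ENSSSCG00000015584 and ENSSSCG00000050221) at chr9:129527704-129583693. These spans were matched by symbol, and the custom annotation that the authors counted against may draw the genes differently.

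General epithelial markers of the duct were present in all 8 libraries, with KRT7, a keratin of simple epithelium, at 522 to 2837 CPM (counts per 1000000 counts of the library, scaled by TMM factors) and EPCAM, an epithelial adhesion molecule, at 228 to 640 CPM. CFTR, the chloride channel of duct cells, ranged much more widely, at 338, 7.68, 30.6 and 85.2 CPM in Em, LPN, EPN1 and EPN2 in complete medium and at 128, 25.1, 84.6 and 2.97 CPM in differentiation medium. The secretin receptor SCTR was at most 2.76 CPM in EPN2, so CFTR and SCTR were low in some libraries. SLC26A6 lay the other way, highest in EPN2 in both media, at 62.8 and 86.2 CPM, and lowest in Em, at 15.8 and 6.29 CPM. KRT8, KRT18 and SPP1 were lowest in EPN2 in differentiation medium, at 425, 45.2 and 135 CPM, whereas CDH1 and BMPR1A were not. SLC4A4 was at 171 to 1211 CPM over all libraries, with EPN2 the lowest line in both media. PTF1A, which defines acinar cells, had 0 counts in all 8 libraries, and the endocrine initiator NEUROG3 had at most 1 count. Markers of squamous and basal epithelium were also present and differed widely between lines. Their sum over the 4 markers in the table (KRT5, KRT15, TP63 and IVL) was 100 CPM in Em, 487 in EPN1, 5840 in LPN and 8673 in EPN2 in complete medium. In differentiation medium the same sums were 146, 2372, 7846 and 13495 CPM. The order of the sum, Em, EPN1, LPN, EPN2, was thus the same in both media. Most of the EPN2 sum was KRT5, at 7653 and 11106 CPM in complete and differentiation medium. KRT15 was instead highest in LPN in both media, at 1194 and 2732 CPM against 183 and 1175 in EPN2. TP63 was highest in LPN in complete medium, at 218 CPM against 127 in EPN2. In bulk RNA, fewer cells of a type and less RNA of a gene per cell cannot be told apart. All 9 genes passed the expression filter of the test.

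**Figure D1:**
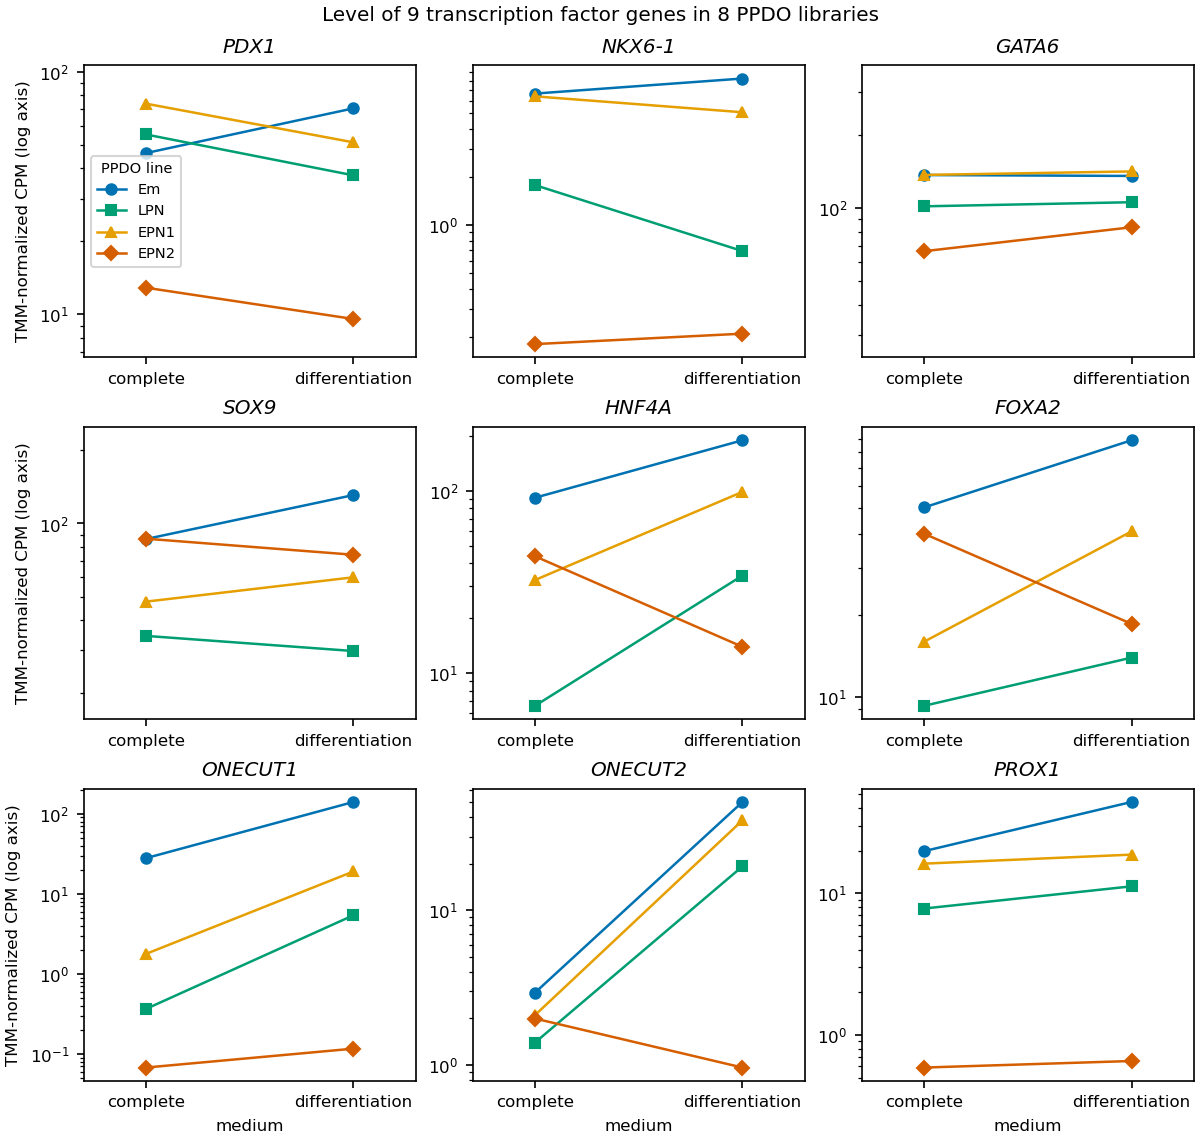
Level of each of the 9 genes in TMM-normalized CPM (vertical log axes, which differ between panels) in complete and differentiation medium, with 1 point per library and a line joining the cultures of 1 PPDO line. ONECUT2 runs from 1.39 to 2.92 CPM in complete medium and parts in differentiation medium into 3 lines at 19.3 to 50.4 CPM and EPN2 at 0.957 CPM.

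The comparison of the media asked how these factors stood after the growth factors were withdrawn. The ONECUT genes had the largest fitted differences of the 9, both toward differentiation medium, and for HNF4A, FOXA2 and ONECUT2 the EPN2 line went the opposite way from the other three. With the medium as the only term, 0 of 9 genes passed an adjusted p of 0.05 in the edgeR quasi-likelihood test, where 6.97% of all 14474 tested genes did, 2.87% toward differentiation and 4.1% toward complete medium. At an unadjusted p under 0.05 there was 1 of 9, ONECUT2, against 27.3% of all genes. DESeq2 called 1 at its adjusted threshold, again ONECUT2, with 19.9% of all genes. Since the lines lie far apart, the same test was also made with the line as a replicate block, which called 1 of 9, ONECUT1, which was higher in differentiation medium, against a background of 19.9% (9.49% higher and 10.4% lower). Blocked and without the 2 EPN2 libraries, the test called 4 of 9, ONECUT1, ONECUT2, HNF4A and FOXA2, against 20.4% of all genes. The 4 were higher in differentiation medium, a direction in which 9.92% of all genes passed. EPN2 was left out after its values had been seen.

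ONECUT2, a cut-homeodomain factor that overlaps with ONECUT1 in early endoderm, was low in complete medium in all lines, at 2.92 CPM in Em, 1.39 in LPN, 2.09 in EPN1 and 1.99 in EPN2. In differentiation medium it stood at 50.4 CPM in Em, 19.3 in LPN and 38.3 in EPN1, but at 0.957 in EPN2. The media therefore separated completely in 3 lines, and only EPN2 made the groups overlap. Within lines ONECUT2 was 17.2-fold higher in Em (95% counting interval 14.5 to 20.6), 13.9-fold higher in LPN (10.6 to 18.5) and 18.3-fold higher in EPN1 (14.8 to 23.0). In EPN2 it was 2.08-fold lower (1.42 to 3.09), on 88 and 41 counts. These intervals cover counting error only.

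Across lines the fitted log2 difference of ONECUT2 was 3.69 ± 0.96 (SE), with an adjusted p of 0.0586 in edgeR and 0.000183 in DESeq2. With line as a block in edgeR it was 3.12 ± 1.07, with an adjusted p of 0.0894. Without EPN2 in differentiation medium the unblocked difference was 4.10 and its edgeR adjusted p was 0.0101. Without the EPN2 line the blocked difference was 4.04 ± 0.17, with an edgeR adjusted p of 0.00461. In edgeR the call for ONECUT2 thus turned on the EPN2 library in differentiation medium.

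ONECUT1, also called HNF6 and needed for duct formation and for the start of the endocrine program, differed more between lines than between media. In complete medium it was at 27.9 CPM in Em, 0.366 in LPN, 1.78 in EPN1 and 0.0678 in EPN2, the last on 3 counts. With differentiation medium it was at 140 CPM in Em, 5.41 in LPN, 19.0 in EPN1 and 0.117 in EPN2, the last on 5 counts. Both media kept the order EPN2, LPN, EPN1, Em from low to high.

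ONECUT1 was higher in differentiation medium in 4 of 4 lines, by 5.03-fold in Em (4.74 to 5.34), 14.8-fold in LPN (8.80 to 26.8) and 10.7-fold in EPN1 (8.43 to 13.8). The ratio in EPN2 was 1.72, with an interval of 0.335 to 11.1, so no direction was detectable there at this depth. Unblocked, the log2 difference was 2.45 ± 2.02 (SE), with an edgeR adjusted p of 0.463. With line as a block ONECUT1 rose by 2.98 ± 0.40, with an edgeR adjusted p of 0.0145 and a DESeq2 adjusted p of 1.8e-08. The blocked edgeR adjusted p of ONECUT1 was 0.0123 without EPN2 and 0.0454 without Em. It was 0.0742 without LPN and 0.0813 without EPN1, where the call was lost.

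HNF4A, a nuclear receptor of foregut, liver and gut epithelium, was at 91.5 CPM in Em, 6.60 in LPN, 32.4 in EPN1 and 43.7 in EPN2 in complete medium. In differentiation medium it was at 189, 34.3, 98.6 and 13.9 CPM. EPN2 went from the second highest line to the lowest, while Em was the highest in both media. HNF4A was 2.07-fold higher in Em (1.99 to 2.14), 5.19-fold higher in LPN (4.56 to 5.92) and 3.05-fold higher in EPN1 (2.86 to 3.24). In EPN2 it was 3.14-fold lower (2.86 to 3.45). Over all lines the log2 difference of HNF4A was 0.95 ± 0.91 (SE), with an edgeR adjusted p of 0.534. Without EPN2, blocked by line, HNF4A rose by 1.66 ± 0.27, with an edgeR adjusted p of 0.0236.

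FOXA2 is a pioneer factor of the endoderm that opens chromatin at Pdx1 and other pancreatic genes. FOXA2 differed between media in the same direction as HNF4A in each line, on a smaller scale. It was at 50.03 CPM in Em, 9.24 in LPN, 15.9 in EPN1 and 40.02 in EPN2 in complete medium, and at 88.7, 13.9, 40.8 and 18.6 CPM in differentiation medium. Em was again the highest in both media. LPN was the lowest in both, unlike for HNF4A, and EPN2 was below EPN1 only in differentiation medium. FOXA2 was 1.77-fold higher in Em (1.68 to 1.87), 1.51-fold higher in LPN (1.33 to 1.71) and 2.56-fold higher in EPN1 (2.34 to 2.80). In EPN2 it was 2.16-fold lower (1.98 to 2.35). The log2 difference of FOXA2 was 0.49 ± 0.71 (SE) over all lines, with an edgeR adjusted p of 0.685. Without EPN2, blocked by line, FOXA2 rose by 0.93 ± 0.18, with an edgeR adjusted p of 0.0320.

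HNF4A, FOXA2 and ONECUT2 were thus 3 of 9 genes that were higher in differentiation medium in Em, LPN and EPN1 and lower in EPN2, where 7.28% of all tested genes had these signs. All 3 passed 0.5 on the log2 scale in each line, as did 1.2% of all tested genes. The full interaction of line and medium left no residual degrees of freedom. A model with a medium term of its own for 1 line, added after the values had been seen and made for each line in turn, left 2. For EPN2 against the other 3 lines, 0 of 9 genes passed an adjusted p of 0.05 in edgeR, as did 0% of all genes. At an unadjusted p under 0.05 there were 3 of 9, against 11.3% of all genes, and they were the 3 whose signs had already set EPN2 apart. The log2 difference between media in EPN2 minus that in the other lines was -5.09 ± 0.38 for ONECUT2 (SE; edgeR adjusted p = 0.191), -3.31 ± 0.55 for HNF4A (0.259) and -2.03 ± 0.37 for FOXA2 (0.276). Calls changed without 1 of the Em libraries, but those fits left fewer than 2 residual degrees of freedom and are not read here. Without the expression filter ONECUT2 passed (edgeR adjusted p = 0.0408). EPN2 was also the line with the highest squamous sum in both media, though KRT15 was highest in LPN in both, and TP63 in complete medium. IVL, the envelope protein involucrin, was at 711 and 905 CPM in EPN2 against 2.51 to 69.02 CPM in the other 6 libraries. The part of these cells in the EPN2 values was not tested.

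**Figure D2:**
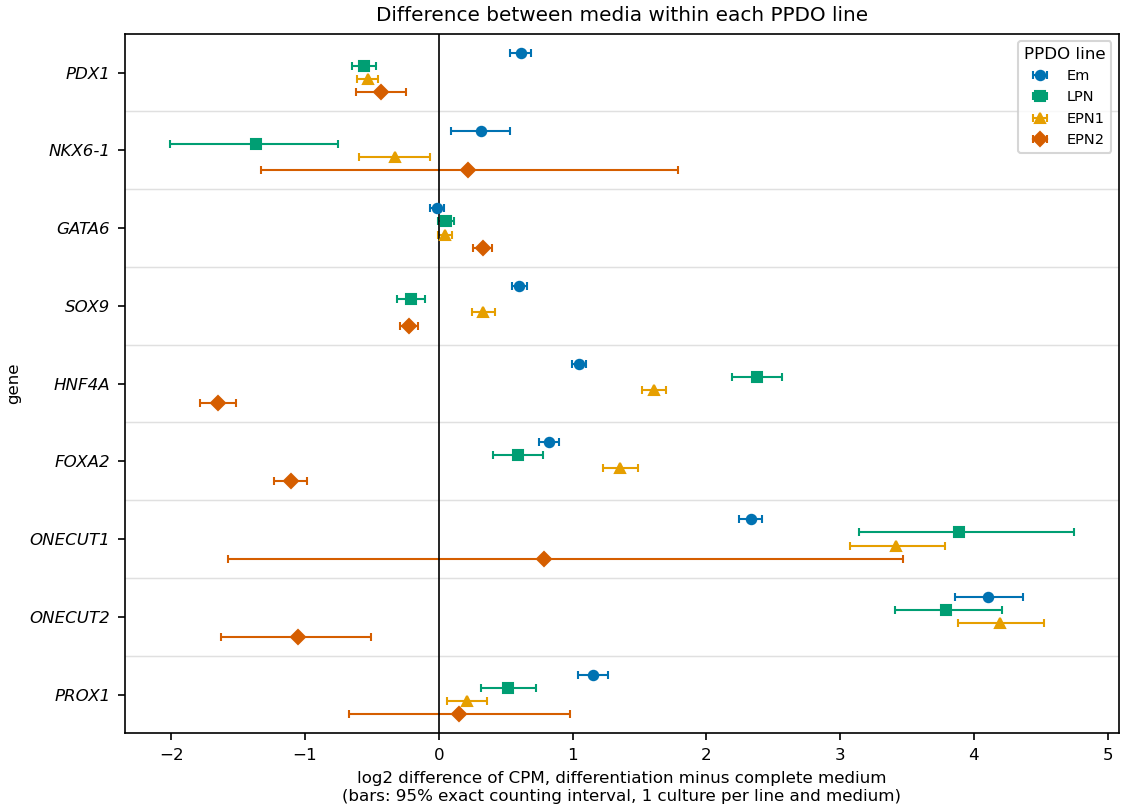
Log2 difference of CPM between differentiation and complete medium (horizontal axis) for each gene (vertical axis), with 1 point per PPDO line and bars for the 95% exact counting interval, which does not include variation between cultures. The EPN2 points of HNF4A, FOXA2 and ONECUT2 lie left of 0, at -1.65, -1.11 and -1.06, while the other 3 lines lie right of it.

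PROX1, a homeodomain factor of pancreatic progenitors, hepatoblasts and lymphatic endothelium, was at 19.8 CPM in Em, 7.80 in LPN, 16.2 in EPN1 and 0.588 in EPN2 in complete medium. The levels in differentiation medium were 44.1, 11.2, 18.7 and 0.654 CPM. The media overlapped, with EPN2 far below the other lines in both. PROX1 was higher in differentiation medium in 4 of 4 lines, as was ONECUT1, and 24% of all tested genes had that sign pattern. The ratio was 2.23 in Em (2.06 to 2.41), 1.43 in LPN (1.25 to 1.65), 1.16 in EPN1 (1.04 to 1.28) and 1.11 in EPN2 (0.629 to 1.97, on 26 and 28 counts). The log2 difference of PROX1 was 0.75 ± 1.17 (SE), with an edgeR adjusted p of 0.712, and 0.54 ± 0.21 with line as a block, with an edgeR adjusted p of 0.123. The lymphatic marker LYVE1 and the endothelial cadherin CDH5 had at most 1 count each in every library.

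PDX1, required for the pancreas to form and later for beta cell identity, was at 46.2 CPM in Em, 55.2 in LPN, 73.9 in EPN1 and 12.9 in EPN2 in complete medium. The levels in differentiation medium were 70.7, 37.4, 51.2 and 9.57 CPM. Em was 1.53-fold higher in differentiation medium (1.45 to 1.61), and the postnatal lines were lower, by 1.47-fold in LPN (1.38 to 1.57), 1.44-fold in EPN1 (1.37 to 1.53) and 1.35-fold in EPN2 (1.18 to 1.53). The log2 difference of PDX1 over all lines was -0.16 ± 0.65 (SE), with an edgeR adjusted p of 0.900. Without Em, blocked by line, it was -0.48 ± 0.11, with an edgeR adjusted p of 0.0584. In the model with a medium term of its own for Em, the response of PDX1 was higher in Em than in the 3 postnatal lines by 1.12 ± 0.22 on the log2 scale. It did not pass in edgeR (adjusted p = 0.534), and 0 of 9 genes and 0% of all genes did. At an unadjusted p under 0.05 there was 1 of 9, PDX1, against 6.6% of all genes. Em is a single source in this test.

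NKX6-1, which follows PDX1 in the progenitor and stays on in beta cells, was low, at 6.63 CPM in Em, 1.78 in LPN, 6.37 in EPN1 and 0.181 in EPN2 in complete medium. In differentiation medium it was at 8.23, 0.689, 5.07 and 0.210 CPM. Within lines NKX6-1 was 1.24-fold higher in Em (1.07 to 1.45), 2.58-fold lower in LPN (1.69 to 4.02) and 1.26-fold lower in EPN1 (1.05 to 1.51), and the EPN2 ratio of 1.16 rested on 8 and 9 counts (0.398 to 3.46). Its log2 difference over all lines was -0.07 ± 1.23 (SE), with an edgeR adjusted p of 0.975.

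SOX9, the HMG-box factor that maintains the progenitor pool and marks ducts, was at 86.3 CPM in Em, 34.4 in LPN, 47.6 in EPN1 and 86.6 in EPN2 in complete medium, and at 131, 29.8, 60.0 and 74.3 CPM in differentiation medium. It was the one of the 9 genes in which EPN2 was the highest line in a medium. Within lines SOX9 was 1.52-fold higher in Em (1.46 to 1.58) and 1.26-fold higher in EPN1 (1.19 to 1.34), and it was 1.15-fold lower in LPN (1.07 to 1.24) and 1.16-fold lower in EPN2 (1.11 to 1.22). The log2 difference of SOX9 was 0.21 ± 0.47 (SE), with an edgeR adjusted p of 0.804.

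GATA6, a zinc finger factor of the early pancreas and of differentiated exocrine cells, was the steadiest of the 9. It was at 137 CPM in Em, 102 in LPN, 137 in EPN1 and 66.5 in EPN2 in complete medium, and at 136, 106, 142 and 83.4 CPM in differentiation medium. Its ratio between media was 0.991 in Em (0.958 to 1.03), 1.04 in LPN (0.998 to 1.08), 1.03 in EPN1 (0.997 to 1.07) and 1.26 in EPN2 (1.195 to 1.32). The log2 difference was 0.08 ± 0.27 (SE), with an edgeR adjusted p of 0.879. The SD of log2(CPM + 0.5) over the 8 libraries was 0.40 for GATA6 and above 49.7% of tested genes, while that of ONECUT1 was 2.93 and above 99.6% of them. ONECUT2, at 2.08, and PROX1, at 1.96, were above 98.0% and 97.5% of tested genes.

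The second comparison asked how the lines differed once the medium was allowed for. The lines differed in ONECUT1, PROX1, NKX6-1 and PDX1, and EPN2 was the lowest line in all 4. In a model with medium and line, 4 of 9 genes passed the edgeR test of the 3 line terms at an adjusted p under 0.05, where 5.13% of all tested genes did. At an unadjusted p under 0.05 there were 7 of 9, against 28.2% of all genes. The range between the highest and the lowest line on the log2 scale was 9.90 for ONECUT1 (edgeR adjusted p = 0.0129), 5.60 for PROX1 (0.0134), 5.25 for NKX6-1 (0.0276) and 2.47 for PDX1 (0.0457). It was 1.74 for SOX9 (0.0520), 0.90 for GATA6 (0.0554), 2.56 for FOXA2 (0.136), 2.95 for HNF4A (0.223) and 2.20 for ONECUT2 (0.585). The median range over all tested genes was 0.72.

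These calls stood on 3 residual degrees of freedom. With the -ext rows left out PDX1 did not pass (range 2.44, edgeR adjusted p = 0.0515), and without the expression filter SOX9 did (0.0296). Without EPN1 in complete medium or without EPN1 in differentiation medium, 0 of 9 genes passed in edgeR, with PROX1 at adjusted p 0.0558 and 0.0578 and ONECUT1 at 0.0600 and 0.0607. PROX1 and ONECUT1 passed without each of the other 6 libraries. NKX6-1 passed only without EPN2 in complete medium (edgeR adjusted p = 0.0488; 0.0523 to 0.100 without each other library), and PDX1 only without Em in complete medium (0.0299) or in differentiation medium (0.0342), with 0.0903 to 0.133 otherwise. With both EPN2 libraries left out, 3 of 9 genes passed, where 2.59% of all genes did. These were ONECUT1 with a range of 5.35 (edgeR adjusted p = 0.0212), FOXA2 with 2.54 (0.0302) and HNF4A with 3.10 (0.0444). The DESeq2 likelihood ratio test called 8 of 9, all but ONECUT2, whose adjusted p was 0.509, and 31.6% of all genes.

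Of the 54 combinations of a gene and a pair of lines, 14 passed in edgeR with adjustment within each pair, against 3.02% over all genes and pairs, and 13 with adjustment over the 6 pairs together. EPN2 was in 11 of the 14. PROX1 was lower in EPN2 than in Em by a log2 difference of 5.60 ± 0.36 (SE; edgeR adjusted p = 0.00531), than in EPN1 by 4.81 ± 0.35 (0.0132) and than in LPN by 3.90 ± 0.34 (0.0231). It was thus the one gene of the 9 that separated EPN2 from each other line under the expression filter, in a contrast of LPN and EPN2 in which 0.484% of all genes passed. PROX1 was also higher in Em than in LPN, by 1.70 ± 0.29 (0.0472), a call that was lost with the -ext rows left out (1.51, 0.0611).

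ONECUT1 was lower in EPN2 than in Em by 9.90 ± 0.75 (SE; edgeR adjusted p = 0.00613) and than in EPN1 by 6.47 ± 0.72 (0.0263), on 3 and 5 counts in EPN2. ONECUT1 in Em also exceeded LPN, by 5.34 ± 0.55 (0.0154). NKX6-1 was lower in EPN2 than in Em by 5.25 ± 0.58 (0.0102) and than in EPN1 by 4.83 ± 0.57 (0.0277). The levels of LPN and EPN2 did not pass for either gene, with log2 differences of 4.56 ± 0.73 for ONECUT1 (0.0775) and 2.57 ± 0.55 for NKX6-1 (0.106). Without the expression filter ONECUT1 passed there (edgeR adjusted p = 0.0386).

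PDX1 was lower in EPN2 than in Em by 2.42 ± 0.34 (SE; edgeR adjusted p = 0.0169) and than in EPN1 by 2.47 ± 0.34 (0.0306), and GATA6 by 0.87 ± 0.14 (0.0245) and 0.90 ± 0.14 (0.0375). For PDX1 the difference of LPN from EPN2 was 2.04 ± 0.33 (0.0789, and 0.0441 without the expression filter). SOX9 had no pair with EPN2 past the threshold but was higher in Em than in LPN by 1.74 ± 0.25 (0.0324). FOXA2, HNF4A and ONECUT2 had no pair past it. In the pairs of Em with EPN1 and of LPN with EPN1, 0 of 9 genes passed, while 0.124% and 0.0276% of all genes did. At an adjusted p under 0.05, 9.51% of all genes passed between Em and EPN2, 4.14% between EPN1 and EPN2 and 3.84% between Em and LPN, so the pair of Em and EPN2 had the most calls over the whole table.

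Leaving out 1 library ended 11 of these 14 calls at least once. The difference of Em from EPN2 passed without each of the 8 libraries for PROX1, ONECUT1 and NKX6-1. For PDX1 it passed in 7 of 8. The PROX1 difference between EPN1 and EPN2 passed in 6 of 8, that between LPN and EPN2 in 3 of 8 and that between Em and LPN in 2 of 8. The differences between EPN1 and EPN2 passed in 5 of 8 for NKX6-1, in 3 of 8 for ONECUT1 and in 2 of 8 for PDX1. Those between Em and LPN passed in 2 of 8 for ONECUT1 and SOX9, and GATA6 passed in at most 1 of 8 for either of its pairs.

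**Figure D3:**
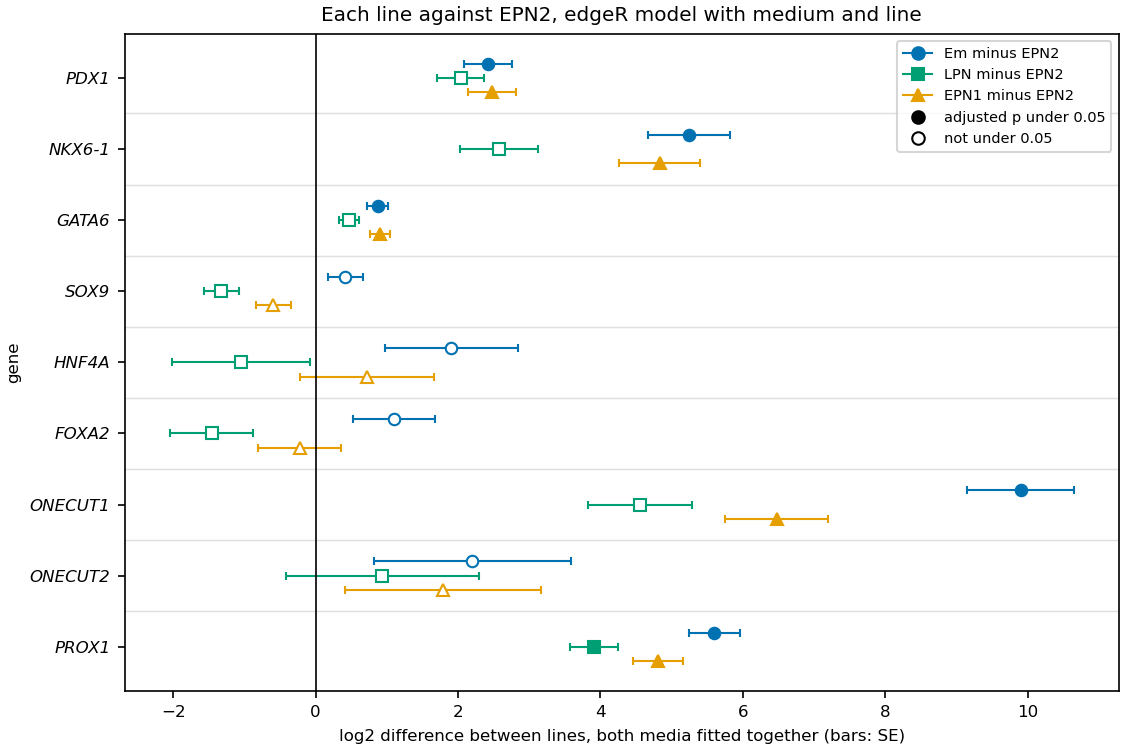
Fitted log2 difference of Em, LPN and EPN1 from EPN2 with both media in the model (horizontal axis, bars are SE) for each gene (vertical axis), filled where the edgeR adjusted p within the pair was under 0.05. The filled points lie at 0.87 and above, and the differences of SOX9, HNF4A and FOXA2 fall on both sides of 0.

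Read by level, 5 of 9 genes were lowest in EPN2 in both media (PDX1, NKX6-1, GATA6, ONECUT1 and PROX1), and 16.6% of all tested genes were. Em was the highest line in both media for 6 of 9 (NKX6-1, HNF4A, FOXA2, ONECUT1, ONECUT2 and PROX1), and 15.4% of all tested genes were. Of the other three, PDX1 was highest in EPN1 in complete and in Em in differentiation medium, SOX9 in EPN2 and then Em, and GATA6 in EPN1 in both media, level with Em in complete medium. The order EPN2, LPN, EPN1, Em held in both media for ONECUT1, NKX6-1 and PROX1, and it is the reverse of the order of the squamous sum. How many of all tested genes had this order was not counted. Among the squamous markers, only KRT5 had the order of the sum in both media. These are 4 lines, and the part of squamous cells in the order was not tested.

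Related factors of the progenitor and duct were followed through a list of 22 genes, of which 21 could be tested. Unblocked in edgeR, 2 rose in differentiation medium, SOX4 among them, and 1 fell. SOX4, an HMG-box partner in endocrine development, rose by 1.56 ± 0.31 on the log2 scale (SE; adjusted p = 0.0311), from 146, 103, 72.7 and 68.3 CPM to 316, 342, 325 and 170 CPM in Em, LPN, EPN1 and EPN2. RBPJ, the DNA-binding partner of Notch, fell by 1.13 ± 0.27 (edgeR adjusted p = 0.0442). SOX4 and RBPJ each went the same way in 4 of 4 lines, EPN2 included. The median log2 difference of the list was 0.14, against 0.01 over all tested genes and 0.49 over the 9 factors. With line as a block, 3 of the list rose and 2 fell, with MEIS1 (0.71, adjusted p = 0.0219) and ONECUT3 (-1.93, 0.0253) added. ONECUT3 thus lay on the other side from its paralogs, at 12.0, 3.75, 30.2 and 3.84 CPM in complete and 6.09, 1.13, 7.08 and 0.444 CPM in differentiation medium.

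Between lines, 4 of these 21 passed in edgeR: GATA4 (adjusted p = 0.0141), HHEX (0.0286), GLIS3 (0.0385) and ONECUT3 (0.0487). GATA4, the paralog of GATA6 and a factor of the early pancreas, stomach and duodenum, was at 10.2, 0.951, 12.6 and 59.2 CPM in Em, LPN, EPN1 and EPN2 in complete medium and at 26.2, 1.40, 24.3 and 62.4 CPM in differentiation medium. EPN2 was its highest line, whereas it was the lowest for GATA6. HHEX and GLIS3, factors of pancreatic budding and of duct and beta cells, were lowest in EPN2 in both media, at 9.07 and 6.77 CPM and at 12.5 and 8.27 CPM. The median range between lines over the 21 genes was 1.01 on the log2 scale, against 2.56 over the 9 factors.

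Endocrine factors were scarce: of 15 listed, 13 were in the table, 6 of these had at most 3 counts everywhere and 2 could be tested. NKX2-2 differed between lines (edgeR adjusted p = 0.0325), at 1.69 CPM in Em and 1.95 in EPN1 against 0.0487 in LPN and 0.158 in EPN2 in complete medium. MNX1 was at 1.29 to 4.56 CPM in all libraries and passed neither test. Of the 4 acinar factors 3 could be tested, and 0 passed. At an unadjusted p under 0.05 there were 0 for the medium and 1 for the line. NR5A2, a nuclear receptor of acinar and progenitor cells, was at 64.5, 14.0, 23.9 and 4.25 CPM in complete and 74.9, 28.0, 45.7 and 1.26 CPM in differentiation medium, with an adjusted p of 0.0729 for the line.

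Of the factors of neighbouring gut and foregut, 8 were in the table and 4 were tested, and 3 of the 4 differed between lines in edgeR. CDX2, the intestinal homeobox factor, was at 8.93, 5.51, 12.8 and 0.113 CPM in complete and 22.0, 3.86, 11.4 and 0.0467 CPM in differentiation medium (adjusted p = 0.0266). IRX2 (0.0142) and IRX3 (0.0170), Iroquois factors, lay the other way, with IRX2 at 15.5 and 27.6 CPM in EPN2 and at most 0.339 CPM in Em and EPN1. With line as a block, IRX3 also rose in differentiation medium, by 4.39 on the log2 scale (edgeR adjusted p = 0.00841).

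Of 12 duct markers tested, 1 passed between lines in edgeR, SCTR, the secretin receptor (adjusted p = 0.0456). It stood at 459, 51.9, 229 and 2.76 CPM in complete and 919, 171, 525 and 0.631 CPM in differentiation medium, higher in differentiation medium in 3 lines and lower in EPN2, as for HNF4A. Of 6 genes tested from a list of textbook targets of HNF4A and other liver-enriched factors, 1 differed between lines, TM4SF4 (0.0170), at 0.723 and 0.911 CPM in EPN2 against 53.9 to 268 CPM elsewhere. SERPINA1, which encodes alpha-1 antitrypsin, was at 22.9, 11.7, 24.3 and 0.543 CPM in complete and 389, 35.4, 298 and 0.677 CPM in differentiation medium. It rose by 2.66 on the log2 scale with line as a block (edgeR adjusted p = 0.0492) and did not pass unblocked (0.195). APOA1 was also lowest in EPN2, at 0.317 and 0.0234 CPM. AMBP lay the other way and was highest in EPN2, at 12.6 and 8.76 CPM against at most 5.26 elsewhere (edgeR adjusted p = 0.0611 for the line). In complete medium EPN2 was highest for F2, at 1.11 CPM, and second highest for VIL1, at 150 CPM. In differentiation medium VIL1 was lowest in EPN2, at 48.1 CPM. No gene of the duct and target lists passed the unblocked medium test in edgeR, with 1 of 12 and 0 of 6 at an unadjusted p under 0.05. For the line, 7 of 12 and 4 of 6 were at an edgeR unadjusted p under 0.05, against 28.2% of all genes.

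Of the 4 squamous and basal markers tested, IVL passed between lines (edgeR adjusted p = 0.0426), and all 4 were at an unadjusted p under 0.05. KRT5, a basal keratin, was at 4.51 CPM in Em, 4359 in LPN, 306 in EPN1 and 7653 in EPN2 in complete medium and at 79.5, 4812, 1431 and 11106 CPM in differentiation medium (0.0561). Endothelial, mesenchymal and immune lists had 0 genes past either test in the unblocked fits, with 5, 2 and 3 tested, and at an unadjusted p under 0.05 there were 2, 1 and 0 for the medium and 1 each for the line. Their summed levels were 16.4 to 58.5, 0.9496 to 9.55 and 6.61 to 58.3 CPM. Acinar enzymes summed to at most 6.63 CPM, with 0 tested. Islet hormone and granule genes summed to at most 3.55 CPM outside the Em library in differentiation medium, where they reached 24.7 CPM, and 0 of the 2 tested passed either test, with 0 at an unadjusted p under 0.05 for the medium and for the line.

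**Figure D4:**
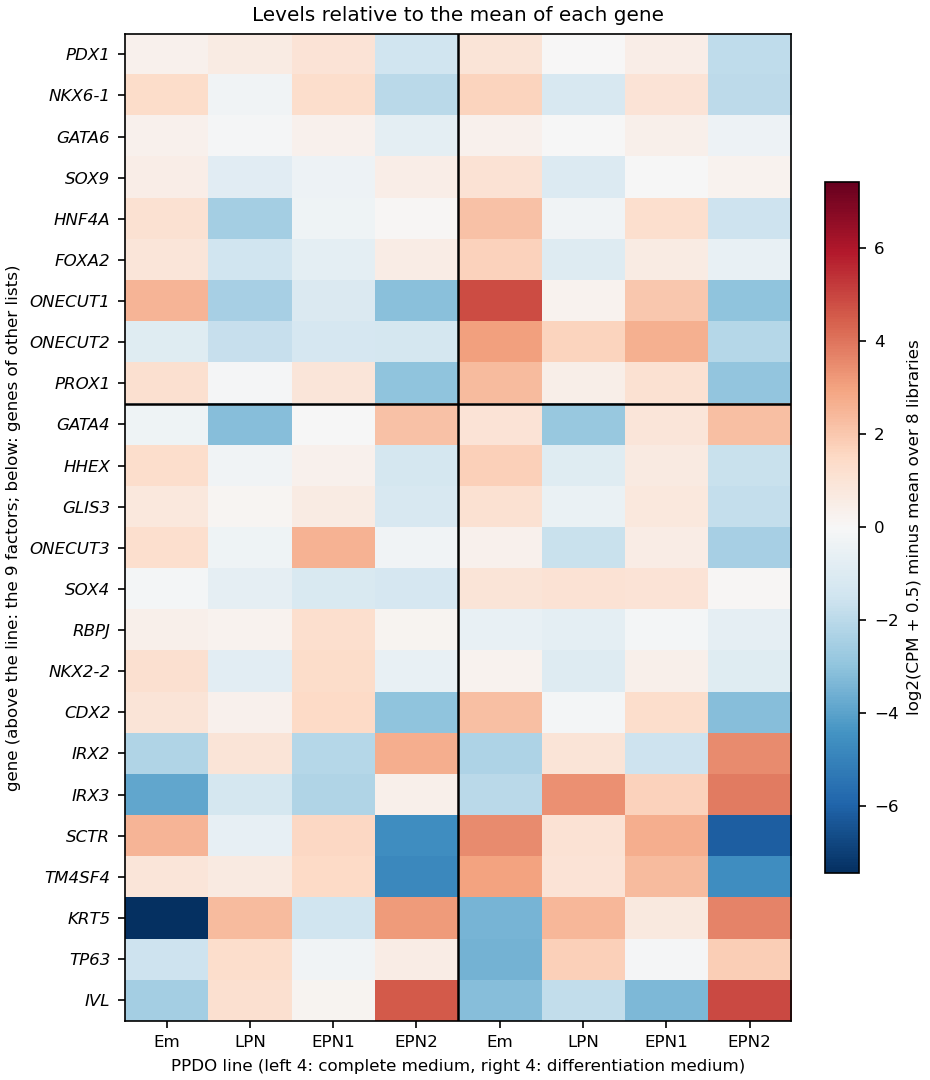
Log2(CPM + 0.5) minus the mean of each gene over the 8 libraries (color) for the 9 factors and 15 genes of the other lists (rows), by line and medium (columns). EPN2 columns are low for ONECUT1, PROX1, CDX2, SCTR and TM4SF4 and high for GATA4, IRX2, KRT5 and IVL in both media.

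The genes whose profile over the 8 libraries lay closest to a factor were found by the root mean square (RMS) difference of centered log2(CPM + 0.5) values, for the 7 factors with an SD of at least 1. This is a description over 8 libraries of 4 lines. PROX1 lay closest to CDX2, at 0.34, and next to NPC1L1, a cholesterol transporter of enterocytes, and ANKS4B, a component of the microvillus brush border. ONECUT1 lay closest to PKHD1, the gene of fibrocystin in primary cilia, at 0.47, which went from 29.9, 0.536, 1.51 and 0.317 CPM in complete to 232, 12.5, 34.2 and 0 CPM in differentiation medium. HABP2 and FGFR4 were next.

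ONECUT2 lay closest to KCNJ16, a potassium channel, at 0.39, which was at 0.433, 0.0731, 0.601 and 0 CPM in complete and 13.7, 4.78, 10.8 and 0.234 CPM in differentiation medium. ITPRID1 and CCBE1, a matrix factor for lymphatic growth, followed. The 3 genes next to ONECUT2 were picked for likeness to it in these same libraries, so a medium test of them would be no separate result. All 3 were at 0 counts in EPN2 in complete medium. FOXA2 was closest to PLS1, an actin bundler of microvilli, at 0.28, and HNF4A to BICD1, at 0.56. PDX1 was closest to CFAP221, at 0.25, followed by EPHX2 and SOCS3, and NKX6-1 to PEG3, at 0.32, followed by LPL and PTER. CFAP221 was at most 3.78 CPM, with 0 in EPN2 in differentiation medium. BICD1 was at most 5.36 CPM, with 0 in LPN in complete medium. CDX2 was at 0.113 and 0.0467 CPM in EPN2. At such levels the pseudocount of 0.5 shapes the likeness. Among the 36 pairs of the 9 factors, SOX9 and FOXA2 were nearest, at 0.52, and HNF4A and FOXA2 next, at 0.68. The paralogs ONECUT1 and ONECUT2 were at 1.65.

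For several genes the annotation sets apart a row with the suffix -ext10kb, whose meaning was not given in the sources used here. For ONECUT2 that row held 31.9% of the counts in Em (exact binomial 95% interval 24.1 to 40.4), 33.3% in LPN (21.4 to 47.1), 33.3% in EPN1 (23.6 to 44.3) and 34.1% in EPN2 (24.3 to 45.0) in complete medium. In differentiation medium it held 45.8% in Em (43.8 to 47.8), 43.0% in LPN (39.8 to 46.3), 42.9% in EPN1 (40.6 to 45.3) and 41.5% in EPN2 (26.3 to 57.9). The share was higher in differentiation medium in 4 of 4 lines, and the media did not overlap, at 33.2% ± 0.938 and 43.3% ± 1.81 (SD, n = 4). It was the one measure of ONECUT2 in which EPN2 went the same way as the other lines.

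The exact two-sided permutation test of the share treated the libraries as unpaired, although each line was cultured in both media. For ONECUT2 this permutation test gave p = 0.0286, the smallest that 4 against 4 libraries allow. It was 0.0857 after adjustment over the 3 of 9 genes with at least 20 counts in each library and 5 to 95% of all their counts in such a row. Of the 1189 genes within these limits, 11.9% had media that did not overlap, and 6.48% were higher in differentiation medium. For PROX1 the share was 54.95% ± 6.17 and 54.0% ± 5.84 (exact permutation p = 0.857), and for PDX1 it was 5.45% ± 1.39 and 4.39% ± 1.95 (exact permutation p = 0.457; SD, n = 4 for both). In Em, ONECUT1 had 32.1% of its counts in such a row in complete and 34.4% in differentiation medium, and its counts in EPN2 were too few for a test. Left out of the sums, these rows lowered the log2 difference of ONECUT2 in Em from 4.11 to 3.78.

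**Figure D5:**
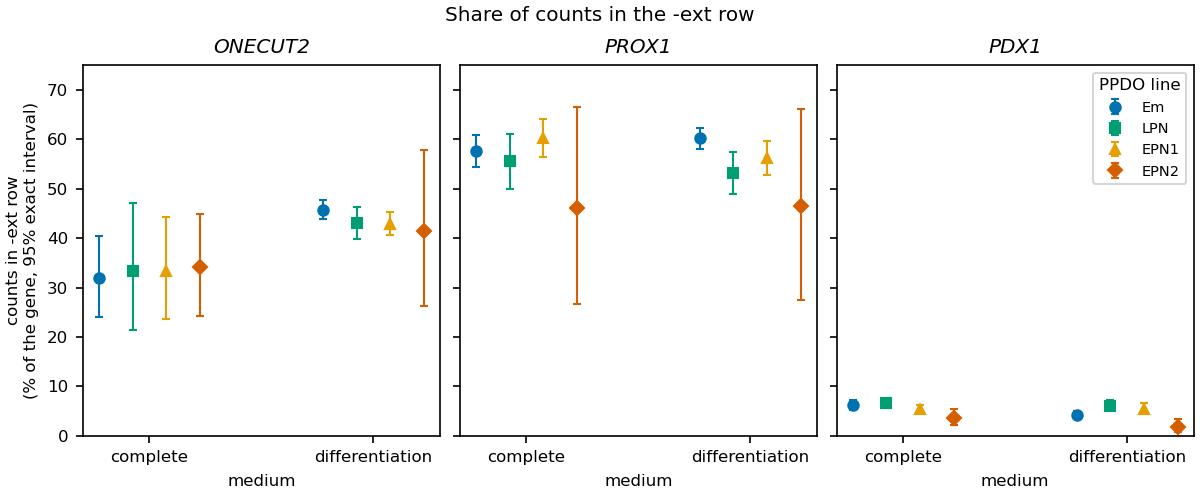
Counts in the -ext10kb row as a percentage of all counts of the gene (vertical axis, from 0) by medium for ONECUT2, PROX1 and PDX1, with 1 point per line and exact 95% binomial intervals for counting error. The 4 ONECUT2 points lie at 31.9 to 34.1% in complete and 41.5 to 45.8% in differentiation medium.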

How the data were processed

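RNA from PPDO in complete or differentiation medium was sequenced by the authors, quantified with salmon (nf-core) on a pig genome with their own annotation, and deposited as estimated counts per gene. Of the values above 0, 78.7% are whole numbers. The submitters' processing notes name Sscrofa11.1. Rows of a gene (56060 in all, suffixes -iso and -ext) were summed and rounded. The 8 rows of reporter transgenes (0.00142% of counts) were left out. Lines were read from the column names and media from the sample titles, although the treatment label names induction medium for all samples.

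Levels are TMM-normalized CPM (factors 0.936 to 1.06). A count of 0 allows 3 counts, or 0.0626 to 0.0740 CPM. Estimated counts were tested in R 4.3.3 with the quasi-likelihood test of edgeR 4.0.16 after its expression filter, with Benjamini-Hochberg adjustment over 14474 genes and a threshold of 0.05. DESeq2 1.42.0, other scaling, no filter, rows without -ext, a line block and left-out libraries and lines were alternatives. A medium term for 1 line at a time was added after the data were seen. Exact permutation tests used scipy 1.17.1, and figures matplotlib 3.10.9 in Python 3.11.15. The edgeR steps were tested on simulated data. Libraries of the same line correlated at 0.400 to 0.657 after medium means were removed (4 pairs), against -0.479 to 0.242 for different lines (12 pairs), so the line pairs the media. The pairing comes from the column names, since each line was cultured in both media.

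Members and lists were chosen with earlier results of these data known. The genes named are the 9 members, genes of the lists past a threshold or defining a cell type, and the 3 closest profiles (pseudocount 0.5) for members with an SD of at least 1. Further list genes (MNX1, NR5A2, KRT5, KRT15, TP63, SERPINA1, APOA1, AMBP, F2, VIL1, SLC26A6, SLC4A4, KRT8, KRT18, SPP1, CDH1, BMPR1A) were named after their values were seen. Some genes of the lists are counted but not reported by name here. No sequence is printed.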

Additional observations from a re-analysis of the deposited data

Results flagged for a closer look

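In 27 tests of 4 values each (the 9 factors, their levels in each medium and their differences between media), 2 had a sample far from the rest by Dixon's criterion, which chance passes in about 5% of groups. For PDX1 the difference between media in Em stood apart as the highest, with a gap of 0.888 of the range of the 4 lines: 0.61 in Em on the log2 scale, against -0.56 in LPN, -0.53 in EPN1 and -0.43 in EPN2. For ONECUT2 the difference in EPN2 stood apart as the lowest, with a gap of 0.924 of the range: -1.06 in EPN2, against 3.79 in LPN, 4.11 in Em and 4.20 in EPN1. In the edgeR model with a medium term of its own for 1 line, neither difference passed (adjusted p = 0.534 for PDX1 in Em and 0.191 for ONECUT2 in EPN2), with 1 culture per line and medium.

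The 8 reporter transgene rows, which entered no comparison, held counts in 3 of the 4 lines. In complete medium they summed to 4664 counts in EPN1, 18 in LPN and 20 in EPN2. In differentiation medium they summed to 234 in EPN1, 57 in LPN and 66 in EPN2. Em had 0 counts in both media.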

How the results depend on the processing

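Of the 9 factors, DESeq2 called 1 for the medium, edgeR with line as a replicate block 1, DESeq2 with that block 2, and the blocked edgeR fit 1 without Em and 4 without EPN2. For the line, DESeq2 called 8, and edgeR 2 without Em and 2 without EPN1. Of all genes, the medium called 1009, and 506 with no filter, 2884 in DESeq2, 2885 with the block, 5398 with the block in DESeq2, and, blocked, 1733 without Em, 2987 without EPN2, 22 without LPN and 8 without EPN1. The line called 743 genes, and 1162 with no filter, 4574 in DESeq2, 223 without LPN, 104 without Em, 379 without EPN2 and 182 without EPN1. RLE scaling and leaving out the -ext rows or the second PROX1 identifier kept these counts within 1.5 times, although PDX1 lost its line call without the -ext rows. In the model with a medium term of its own for EPN2, which called 0 factors, 1 passed with no filter. The cause of these changes was not tested. Leaving out libraries and lines also leaves fewer degrees of freedom.

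With each library left out in turn, the medium called 0 to 1 factors, the line 0 to 6, the pairs of lines 4 to 21 combinations and the EPN2 term 0 to 2 factors. Over all genes the medium called 70 to 1200 and the line 24 to 971. Some small differences that had not passed changed sign. The medium difference on the log2 scale ran from -0.52 to 0.18 for PDX1, -0.22 to 0.48 for SOX9, -0.91 to 0.38 for NKX6-1, -0.24 to 0.92 for FOXA2, -0.10 to 0.22 for GATA6 and -0.12 to 1.21 for PROX1. Blocked, SOX9 was at -0.0067 without Em and NKX6-1 at 0.043 without LPN, and GATA6 within Em was at 0.0032 with RLE scaling. Between lines, Em minus EPN1 ran from -0.66 to 0.44 for PDX1, -0.065 to 0.80 for NKX6-1, -0.12 to 0.048 for GATA6 and -0.50 to 1.41 for ONECUT2, and Em minus LPN from -0.22 to 0.88 for PDX1. LPN minus EPN2 ran from -2.32 to 0.99 for HNF4A and -0.65 to 4.43 for ONECUT2, EPN1 minus EPN2 from -0.47 to 2.85 for HNF4A and -1.10 to 0.93 for FOXA2, and LPN minus EPN1 from -1.46 to 0.13 for ONECUT2. The line block changed no other call of a factor than that of ONECUT1. Counts of 3 to 9 in EPN2 limit what can be said of ONECUT1 and NKX6-1 there.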
